A study of Homo sapiens with 29 samples.

Results

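The comparison was between human bronchial epithelial BEAS-2B cells exposed to 500 nM N-OH-PhIP and the same cells exposed to 100 nM, taken by the dose in the sample titles as 6 of the 29 arrays of the series, 3 at each dose. BEAS-2B is a line of bronchial epithelial cells immortalised with a hybrid of adenovirus and SV40, whose large T antigen binds p53 and retinoblastoma proteins, so p53 target genes are read here in a background altered by that virus. PhIP is an amine that forms when meat is cooked and that tobacco smoke also carries, and N-OH-PhIP is the form that enzymes of the cell make by adding a hydroxyl group to its nitrogen. The series asked at which dose a transcriptional effect appears, and its 10 groups were the solvent dimethyl sulfoxide (DMSO) alone and 9 doses from 0.1 to 1000 nM. All cultures, at every dose, received DMSO at 1% and were harvested after 24 h. By the study design each dose was given to 3 cultures. Of 0.5 nM, 2 arrays were analysed here. The DMSO arrays served nowhere as a reference, and the doses below 100 nM and the dose of 1000 nM are compared only where they are named. All 29 arrays entered the estimate of spread and the mean level that decided what was tested.

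N-hydroxylated heterocyclic amines are esterified in the cell by acetyltransferases and sulfotransferases, and the esters form bulky adducts on guanine in DNA. Such adducts block RNA and DNA polymerases, are removed by nucleotide excision repair, and activate checkpoint kinases and the transcription factor p53. A block in the transcribed strand stops RNA polymerase II part of the way through a gene, and the chance of meeting a block grows with the length of the gene.

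The epithelial origin was checked on markers. Of 13 markers of bronchial epithelial cells, 11 were on the array and 10 lay above the minimum level tested, which was an intensity of 37.4. EPCAM, an epithelial adhesion molecule, had a mean intensity of 4069.8 ± 233 (SD, n = 3) at 100 nM and 4052 ± 179 (SD, n = 3) at 500 nM. The basal cell keratin KRT14 stayed under the minimum, at 17.3 and 18.8. Among markers of other cells, 7 of 9 mesenchymal, 4 of 12 leukocyte, 3 of 11 endothelial, 1 of 11 fibroblast and 5 of 13 differentiated airway genes on the array were above the minimum. The mesenchymal genes SPARC, FN1 and TWIST1 had means of 4281 ± 76.9, 2718 ± 134 and 1557 ± 22.4 at 100 nM (SD, n = 3 each). ZEB1 and ZEB2 were under the minimum, at 16.8 and 8.47. The defining leukocyte gene PTPRC stood at 9.42 and 9.03 and the endothelial gene PECAM1 at 23.9 and 25.2. Some markers of other cells were above the minimum and rose: COL1A1 from 722 ± 44.9 to 1015 ± 83.4, CORO1A from 164 ± 8.32 to 235 ± 53.8, LCP1 from 50.0 ± 5.66 to 72.2 ± 6.98 and FLT1 from 140 ± 34.2 to 182 ± 12.2 (SD, n = 3 each; limma adjusted p from 0.000442 to 0.0431). The airway gene AGR2 fell from 1673 ± 277 to 1408 ± 179 (adjusted p = 0.0421). CD74, at 445 ± 47.9 and 513 ± 57.2, was not called. The part of other cells in the results was not tested.

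The step from 100 to 500 nM changed 9751 of 27307 tested probe sets, 35.7% of them, at an adjusted p under 0.05. Probe sets are groups of short probes for 1 transcript, and p was adjusted over all of them with the Benjamini-Hochberg method after a limma fit. In all, 4853 probe sets (17.8%) were higher at 500 nM and 4898 (17.9%) were lower. Most changes were small: 2139 probe sets (7.83%) passed the test with a change of at least 1.5-fold, 1264 (4.63%) higher and 875 (3.2%) lower, and 481 (1.76%) with at least 2-fold. The 3 arrays of 500 nM all lay above or all below the 3 arrays of 100 nM for 10116 probe sets (37%), and 8305 (30.4%) had both a call and no overlap. The main fit shares 1 spread per probe set over all 10 groups, but the groups were not equally spread. Over tested probe sets, arrays of 500 nM lay 0.118 to 0.206 (root mean square, log2 scale) from their group mean. Arrays of 100 nM lay 0.085 to 0.126 from theirs, and all other arrays 0.070 to 0.175. A fit of the 6 arrays alone, with its own spread and fewer degrees of freedom, called 4872 probe sets, of which 4810 were among the 9751.

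Equal 5-fold steps at lower doses, which share no array with this one, were almost without calls. From 10 to 50 nM 7 probe sets changed (0.0256%), from 1 to 5 nM none (0%), and from 0.1 to 0.5 nM none (0%). The 7 calls became 4 to 8 when an array of 100 or 500 nM was left out of the shared estimate of spread and level, with 4 without the first or the third array of 100 nM, and 1 with the level filter taken over the 6 arrays. The step from 1 to 5 nM had 1 call without the second array of 500 nM. At an unadjusted p under 0.05 these steps gave 1398 (5.12%), 1527 (5.59%) and 1523 (5.58%) probe sets, against 12104 (44.3%) from 100 to 500 nM. The median size of the log2 change was 0.17 in the step to 500 nM and 0.06, 0.07 and 0.07 in the lower steps, taken from 10 to 50 nM downward. The size exceeded by 1 probe set in 100 was 1.17 from 100 to 500 nM and 0.34, 0.37 and 0.43 below. The difference between the steps from 100 to 500 nM and from 10 to 50 nM was tested directly with limma and was called for 6676 probe sets (24.4%), 3427 with a positive difference (12.5%) and 3249 with a negative one (11.9%). Of the 9751 probe sets called from 100 to 500 nM, 6329 (64.9%) also had a called difference of the same sign.

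**Figure D1:**
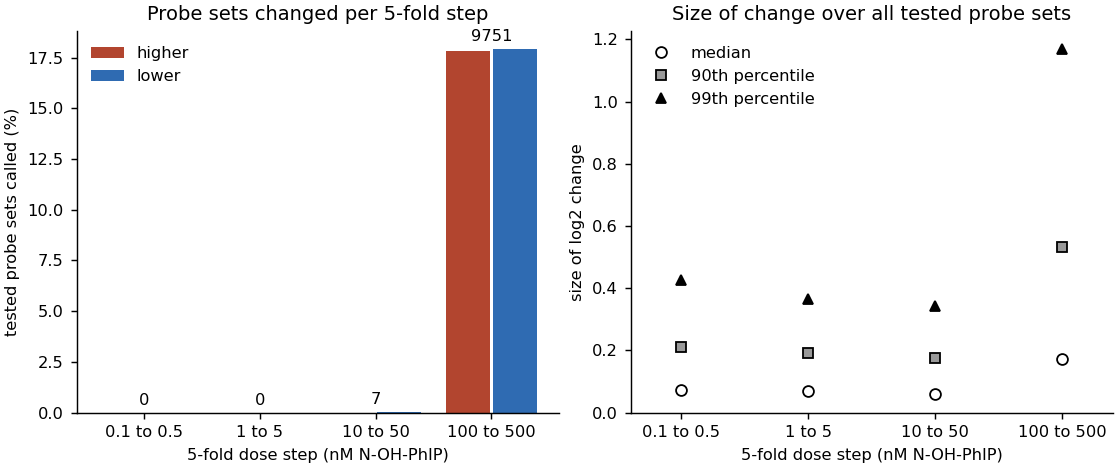
Left, share of the 27307 tested probe sets called higher (red) or lower (blue) in each of 4 steps of 5-fold in dose, with the number called above the bars; right, median, 90th and 99th percentile of the size of the log2 change over all tested probe sets. The step from 100 to 500 nM had 9751 calls, the step from 10 to 50 nM 7 and the 2 lowest steps none.

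The neighbouring steps share 3 arrays each with the step to 500 nM and are set beside it without a test of overlap. From 50 to 100 nM, a doubling of the dose, 26 probe sets changed (0.0952%), 14 higher (0.0513%) and 12 lower (0.0439%). The count of 26 was 13 without the first and 14 without the second array of 100 nM, and 42 without the second and 40 without the third of 500 nM. It was also 13 without the level filter and 42 after quantile normalization. From 500 to 1000 nM 11820 changed (43.3%). The 1000 and 50 nM arrays share none with the 500 and 100 nM arrays, and 1000 against 50 nM changed 15947 probe sets (58.4%), 26.5% higher and 31.9% lower. Of the probe sets called higher at 500 nM, 87.3% were also higher at 1000 against 50 nM, and of those called lower 93.9% were also lower, while 74.8% of all tested probe sets had the same sign in both comparisons. Both comparisons called 7404 of the 9751 in the same direction (75.9%) and 295 in opposite directions (3.03%).

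The few genes called at lower doses are given by name. From 10 to 50 nM 6 genes were lower (0.022% of probe sets) and 1 higher (0.00366%). The lower ones were FHIT (-0.70), WWOX (-0.61), MACROD2 (-1.20), HDAC9 (-0.77), RPL22L1 (-0.44) and RRM2 (-0.20), and the single higher one was RPS27L (0.21), a p53 target. FHIT, HDAC9 and RPS27L had an adjusted p of 0.0469 in limma, close to the threshold. FHIT, WWOX, MACROD2 and HDAC9 each span at least 200 kb, and the median over the 6 lower genes was 1014.3 kb. From 50 to 100 nM the higher genes included TP53I3 (0.62), FAS (0.32), SESN1 (0.47) and a probe set of MDM2 (0.68), all p53 targets, and the lower ones FHIT (-1.10), MACROD2 (-0.81), IMMP2L (-0.62) and PARD3B (-0.88). Of the 11 genes lower from 50 to 100 nM, 9 span at least 200 kb, with a median span of 899.8 kb, and none of the 11 higher genes with a known span did. The genes of the step from 50 to 100 nM named here were picked from its 26 calls after their values were seen.

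MACROD2, an ADP-ribose hydrolase gene of 2058 kb, had already fallen to a low level before 500 nM. At 10 nM its mean intensity was 97.2 ± 17.7 (SD, n = 3). It was 33.1 ± 4.32 at 50 nM, 11.9 ± 0.985 after 100 nM and 8.59 ± 1.21 after 500 nM. The values at 100 and 500 nM lie under the minimum level, and their difference of -0.18 did not pass the test (adjusted p = 0.196). FHIT, a dinucleosidase gene in the fragile site FRA3B, went from 152 ± 23.6 at 10 nM through 87.8 ± 15.4 at 50 nM and 32.2 ± 4.38 at 100 nM to 12.6 ± 4.20 at 500 nM. FHIT fell by 0.76 in the last of these steps (adjusted p = 3.63e-05), from a level that was itself under the minimum.

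The 10 largest rises in the step to 500 nM ran from 2.09 to 2.55 on the log2 scale. The long noncoding RNA UCA1 had intensities of 59.8, 81.3 and 76.3 at 100 nM and 509, 565 and 432 at 500 nM. No array of 500 nM overlapped those of 100 nM, and the log2 change was 2.55 (SE 0.12, adjusted p = 5.19e-14). SP6, a zinc finger factor of epithelial and tooth development, had 86.7, 86.0 and 93.3 at 100 nM and 474, 615 and 585 at 500 nM, a rise of 2.45 (SE 0.11, adjusted p = 5.19e-14). CEACAM1, a cell adhesion molecule of epithelia and leukocytes, rose by 2.36 (SE 0.19, adjusted p = 2.76e-10) from 62.5, 74.7 and 38.4 at 100 nM and 380.3, 382 and 316 at 500 nM. In both genes the lowest array of 500 nM lay far above the highest of 100 nM.

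OTP, a homeobox factor of the hypothalamus, rose by 2.31 (SE 0.14, adjusted p = 4.14e-12), with 55.9, 39.9 and 41.4 at 100 nM and 321, 286 and 263 at 500 nM. IGFL1, an insulin growth factor-like ligand of skin, had 151, 115 and 193 at 100 nM and 714, 910.3 and 605 at 500 nM, a rise of 2.17 (SE 0.18, adjusted p = 1.04e-09). Further rises among the 10 largest were in the ciliary gene CFAP251 (2.17), ANKUB1 (2.14), ELAPOR1 (2.11), the cytokine IL6 (2.10) and the Ras GTPase activator RASAL1 (2.09). OTP and ANKUB1, with 1 tested probe set each, had mean log2 levels of 5.86 and 5.94, close to the minimum of 5.74. The arrays of 500 nM count in that mean, so passing the level filter was not independent of the rise. At 10 and 50 nM OTP, with means of 28.3 and 24.7, and ANKUB1, with 29.9 and 28.5, lay under the minimum intensity of 37.4. Adjusted p values of the 10 ran from 5.19e-14 to 1.16e-09 in limma. From 10 to 50 nM none of the 10 was called, with changes from -0.57 to 0.19, and the difference of the steps was called for all 10. At 1000 against 50 nM all 10 were called higher, by 0.44 to 2.84.

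At 1000 nM the mean of 9 of these 10 genes was below that at 500 nM. The 10 genes were picked for being high on the 500 nM arrays, which this comparison shares. UCA1 had a mean of 166, IL6 of 148 and RASAL1 of 57.1 at 1000 nM, while SP6 stood at 673.

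**Figure D2:**
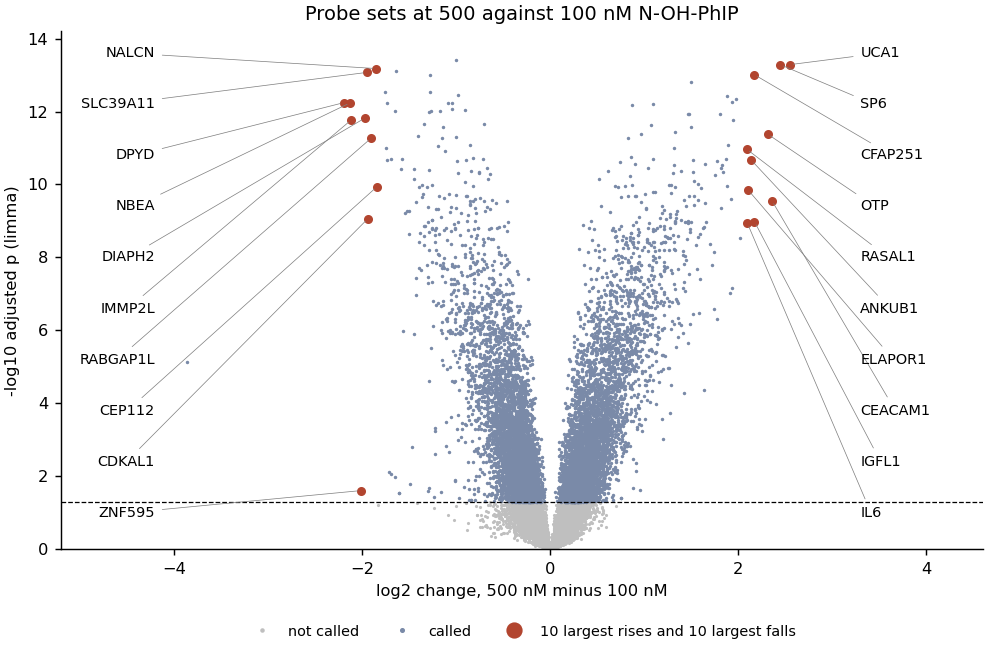
Each point is 1 of 27307 probe sets, with the log2 change from 100 to 500 nM on the horizontal axis and -log10 of the limma adjusted p on the vertical axis; the dashed line is the threshold of 0.05, blue points are called, and red points are the 10 largest rises and 10 largest falls among genes with 1 symbol. Rises from 2.09 to 2.55 include UCA1, SP6 and IL6, and falls from -2.19 to -1.84 include DPYD, NBEA and IMMP2L.

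Of the 10 largest falls, 9 were in genes that span at least 200 kb. DPYD, the pyrimidine catabolic enzyme dihydropyrimidine dehydrogenase, had 223, 198 and 185 at 100 nM and 42.8, 21.03 and 33.4 at 500 nM, a change of -2.19 (SE 0.12, adjusted p = 5.72e-13). NBEA, a membrane trafficking scaffold, fell from 468, 448 and 395 at 100 nM and 83.8, 71.9 and 111 at 500 nM, a change of -2.12 (SE 0.12, adjusted p = 5.73e-13). IMMP2L, a mitochondrial inner membrane peptidase, had 344, 299 and 303 at 100 nM and 50.2, 54.4 and 79.8 at 500 nM and changed by -2.11 (SE 0.13, adjusted p = 1.7e-12). In these 3 genes every array of 500 nM was lower than every array of 100 nM.

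DIAPH2, an actin-nucleating formin, had 231, 184 and 181 at 100 nM and 31.0, 42.1 and 43.6 at 500 nM and changed by -1.97 (SE 0.12, adjusted p = 1.5e-12). CDKAL1, a tRNA-modifying methylthiotransferase, had 993, 926 and 914 at 100 nM and 284, 144 and 312 at 500 nM and changed by -1.94 (SE 0.16, adjusted p = 8.66e-10). The zinc transporter SLC39A11 (-1.95), the Rab GTPase activator RABGAP1L (-1.90), the sodium leak channel NALCN (-1.85) and the centrosomal gene CEP112 (-1.84) completed 9 of the 10, all 9 of which span at least 363 kb. The median span of the 10 was 714 kb and that of the 10 largest rises 26.3 kb. All 9 were called lower at 1000 against 50 nM as well. In 2 of the 10 falls the mean at 1000 nM was below that at 500 nM. The 10 were picked for being low on the 500 nM arrays, which this comparison shares. Among the others, SLC39A11 had a mean of 143 at 500 nM and 315 at 1000 nM, and IMMP2L 61.5 and 108.

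The other fall was in the zinc finger gene ZNF595, which spans 34.9 kb, and its arrays were uneven. Its intensities were 93.4, 89.5 and 244 at 100 nM and 22.8, 22.02 and 15.3 at 500 nM, a change of -2.01 (SE 0.69, adjusted p = 0.0245). The third array of 100 nM stood well above the other two, and without that array the change was -1.58 with adjusted p = 0.117. The call was also lost without the third array of 500 nM (adjusted p = 0.051). A second tested probe set of ZNF595 had means of 337 ± 82.1 and 326 ± 65.5 (SD, n = 3) and was not called (-0.04, adjusted p = 0.9). The lowest value of all tested probe sets, -3.86, had no gene symbol in the annotation.

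Among genes of 50 kb and over the median change fell with genomic span, the distance from the first to the last base of a gene in the RefSeq annotation of GRCh38.p14. Below 50 kb no such trend was seen, with a median log2 change of 0.01 under 10 kb (2710 genes) and 0.02 at 10 to 50 kb (5340). The median was -0.04 at 50 to 100 kb (1990) and -0.11 at 100 to 200 kb (1355). It was -0.32 at 200 to 500 kb (646) and -0.67 at 500 kb and over (123). In the longest class 83 of 123 genes fell and 11 rose, against 2620 (21.5%) lower and 2294 (18.8%) higher of all 12174 genes, of which 40.4% were called, each read by its brightest tested probe set. A fall of at least 2-fold was called for 41 of the 123 longest genes, 33.3%, and for 8 of the 2710 shortest, 0.295%. The 3 arrays of 500 nM gave medians of -0.67, -0.65 and -0.60 in the longest class, so no single array carried it. The median of the same class was -0.08 from 10 to 50 nM and -1.05 at 1000 against 50 nM.

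Read the other way, the 459 genes that fell at least 1.5-fold had a median span of 189.6 kb and the 575 that rose at least 1.5-fold 19.0 kb, against 25.4 kb for genes without a call. Spearman's rho between span and change was -0.23 over 12164 genes, which are not independent replicates. The median mean level on the log2 scale was 8.46 in the shortest class, 8.81 at 200 to 500 kb and 7.72 at 500 kb and over, and the shortest and longest genes were also compared within 3 equal classes of level, an alternative chosen after seeing the data. In the lowest class the longest genes had a median of -0.62 (69 genes) and the shortest 0.03, and in the middle class -0.90 (40 genes) and 0.02. The highest class held 14 of the longest genes, with a median of -0.53. Among 3728 genes with several probe sets and a call, 159 (4.27%) had probe sets called in opposite directions.

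**Figure D3:**
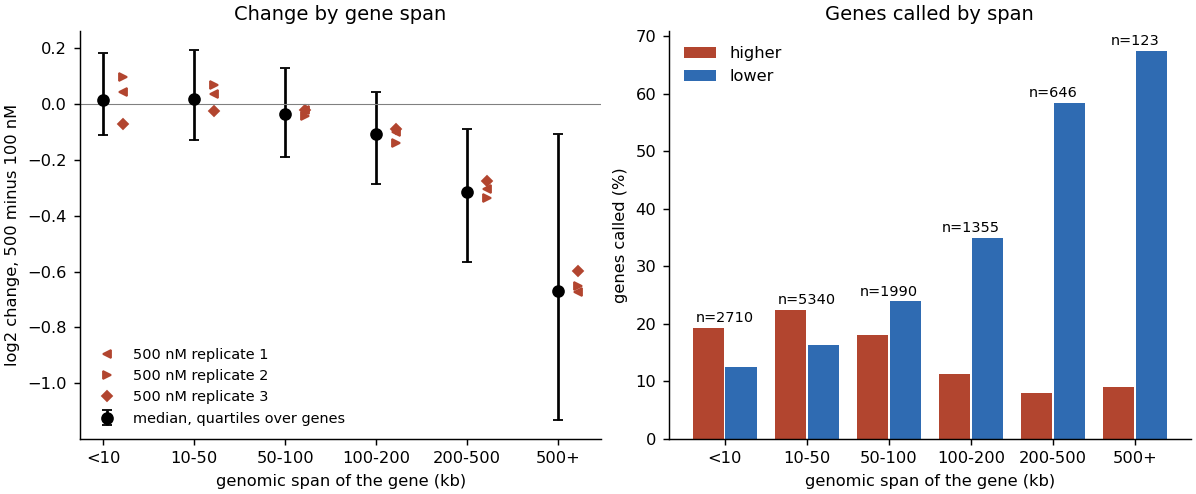
Left, median log2 change from 100 to 500 nM over the genes of each span class, with bars for the quartiles over genes and red symbols for the 3 arrays of 500 nM against the mean of the 100 nM arrays; right, share of genes called higher and lower. The median went from 0.01 under 10 kb to -0.67 at 500 kb and over, where 67.5% of genes were lower.

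Gene lists for 35 pathways and cell types held 858 symbols, of which 763 were on the array and 683 were tested, and the counts below are over those tested. Each count is to be read beside the shares over all 12174 tested genes, 18.8% higher and 21.5% lower. No list was tested as a set. Genes at common fragile sites, chromosome regions that break when replication is stressed, are mostly very long. Of 22 listed, 11 were tested, and 6 fell and none rose: DPYD, NBEA, IMMP2L, PTPRG (-1.15), WWOX (-1.02) and FHIT (-0.76). Their list median was -0.76, against -0.02 for all genes. WWOX, an oxidoreductase gene at FRA16D, had 81.8, 76.1 and 66.7 at 100 nM and 23.4, 37.6 and 26.8 at 500 nM. Each WWOX array of 500 nM was lower than each of 100 nM. Not called were CTNNA1 (0.07), RORA (0.07), DMD (-0.04) and CNTNAP2 (-0.25) beside MACROD2. WWOX had 4 tested probe sets, of which 2 were called, both lower.

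In the step from 100 to 500 nM, genes that p53 activates were higher wherever they were called. Of 34 tested, 29 rose, none fell and 5 did not pass the test, with a list median of 0.47 and between 26 and 32 rises when an array was left out. Death receptors and effectors were among them. FAS, a death receptor, had 1715, 1730.2 and 1652 at 100 nM and 3131, 3130.4 and 3112 at 500 nM, a rise of 0.87 (SE 0.05, adjusted p = 6.8e-13). TNFRSF10A, a receptor for the ligand TRAIL, had 1197, 1317 and 1225 at 100 nM and 2190.4, 2218 and 2399 at 500 nM, a rise of 0.86 (SE 0.06, adjusted p = 1.77e-11). In both, the arrays of a dose lay close together and the doses were well apart.

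The oxidoreductase gene TP53I3 had 3209, 3457 and 2920.1 at 100 nM and 7071, 7020.4 and 5437 at 500 nM, a rise of 1.02 (SE 0.08, adjusted p = 4.46e-10). AEN, an apoptosis-enhancing nuclease, rose by 0.91 (SE 0.07, adjusted p = 2.06e-10), with 1075, 1154 and 1049.8 at 100 nM and 2150.2, 2048 and 1986 at 500 nM. Lower arrays of 500 nM for TP53I3 were still above every array of 100 nM. The ceramidase gene ACER2 (1.24), the kinases PLK2 (0.91) and PLK3 (0.92), the phosphatase PPM1D (0.81), the repair genes XPC (0.92) and DDB2 (0.52), the stress kinase regulator GADD45A (0.57) and the bypass polymerase POLH (0.39) also rose.

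The cell cycle inhibitor CDKN1A changed less, with 6376, 6543 and 5883 at 100 nM and 8407, 8124 and 7369.8 at 500 nM, a rise of 0.34 (SE 0.05, adjusted p = 1.14e-05). GDF15, a secreted stress cytokine, rose by 0.73 (SE 0.07, adjusted p = 8.75e-09). MDM2, the ubiquitin ligase that limits p53, had 9 tested probe sets, all of them higher, by 0.13 to 1.64. The brightest of these rose least, from 6094 ± 82.6 to 6698 ± 440 (SD, n = 3), and its call (adjusted p = 0.0443) was lost when any array but the second of 500 nM was left out, with adjusted p from 0.0761 to 0.187. Members without a call were SESN2 (-0.04), TNFRSF10B (-0.02), PMAIP1 (0.18), ASCC3 (0.19) and SPATA18 (0.23). At 1000 against 50 nM 22 of the 34 p53 target genes were called higher and 3 lower, with a median of 0.41. Of all 12174 genes 2857 were higher and 4626 lower in that comparison.

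**Figure D4:**
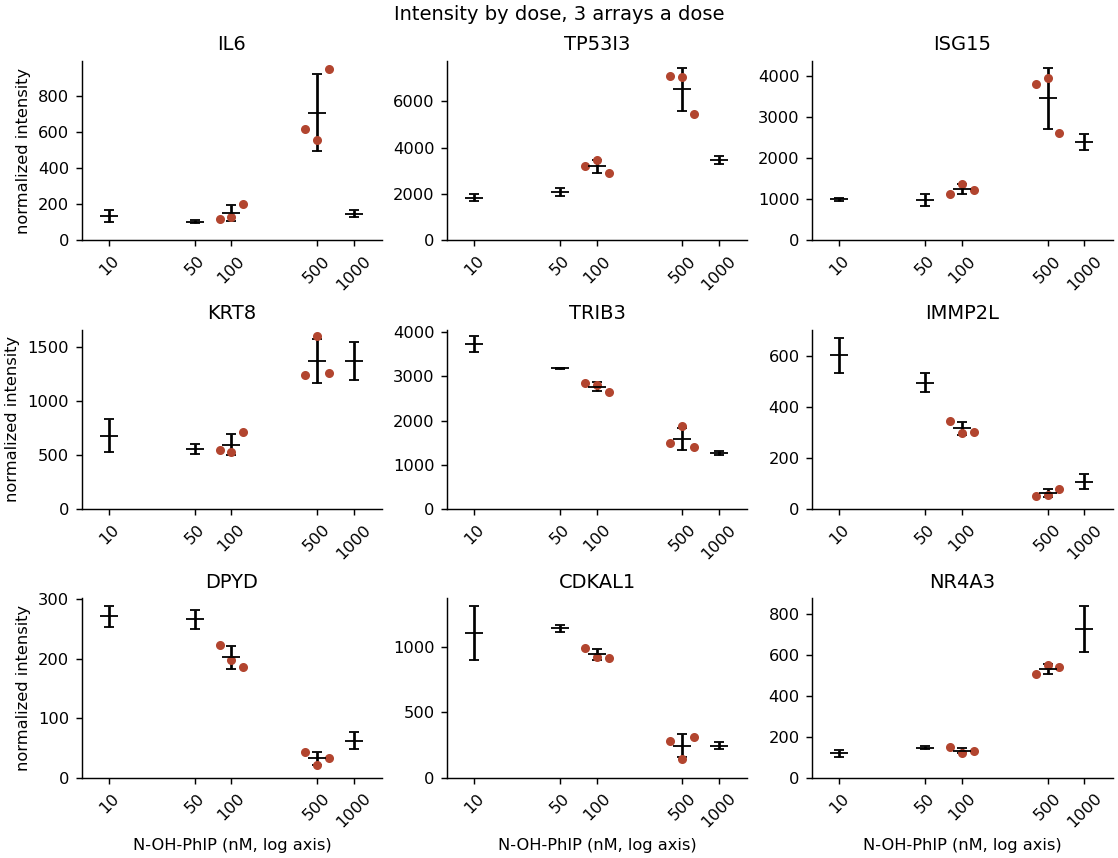
Normalized intensity (vertical, linear from 0) by dose of N-OH-PhIP (horizontal, log axis) for 9 genes: black bars are the mean and SD of 3 arrays, and red points are the single arrays of 100 and 500 nM. IL6, TP53I3 and ISG15 were higher at 500 than at 100 nM and lower at 1000 than at 500 nM, NR4A3 and KRT8 stayed high at 1000 nM, and TRIB3, IMMP2L, DPYD and CDKAL1 were lower at 500 nM.

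Cytokines and other targets of NF-kB, a factor of inflammation and cell survival, were higher in 14 of 21 tested genes and lower in 1, with a list median of 0.48. IL6, a cytokine of the acute phase, had 121, 131 and 204 at 100 nM and 618, 554 and 951 at 500 nM. No array of 500 nM came near the range of 100 nM, and the rise was 2.10 (SE 0.18, adjusted p = 1.16e-09). IL11, a cytokine of the IL6 family, had 60.0, 58.7 and 71.7 at 100 nM and 306, 262 and 269.8 at 500 nM, a rise of 1.89 (SE 0.12, adjusted p = 8.28e-12). CXCL8, which attracts neutrophils, had 120.3, 88.1 and 179 at 100 nM and 438, 354 and 648 at 500 nM, a rise of 1.78 (SE 0.22, adjusted p = 4.85e-07).

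The feedback inhibitor TNFAIP3 had 171, 177 and 181 at 100 nM and 521, 561 and 659 at 500 nM, a rise of 1.63 (SE 0.14, adjusted p = 1.59e-09). LIF (1.17), IL1B (1.06), PTGS2 (0.71), NFKB2 (0.65) and the inhibitor NFKBIA (0.31) rose as well. The chemokine CXCL5 fell by 0.55, and the close relatives CXCL2 (0.02) and CXCL3 (-0.00) did not pass the test. The groups of IL6, IL11, CXCL8 and TNFAIP3 did not overlap.

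Promoters are shown for 3 cytokines that rose, IL6 with one short motif and IL11 and CXCL8 with another, and for an interferon gene that rose and one without a call that hold the same motif, with the sequences taken from RefSeq on GRCh38.p14. Each is the 150 bases before the annotated start of the gene, written 5′ to 3′ along its strand, and capitals mark the motif. The IL6 promoter shows an NF-kB motif, the IL11 and CXCL8 promoters show AP-1 motifs, and the ISG15 and IFIT1 promoters show interferon response motifs.
IL6 promoter, chr7:22727050-22727199, plus strand: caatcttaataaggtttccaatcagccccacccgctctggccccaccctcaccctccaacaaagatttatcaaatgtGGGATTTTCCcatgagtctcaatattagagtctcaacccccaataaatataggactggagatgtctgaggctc
IL11 promoter, chr19:55370464-55370613, minus strand: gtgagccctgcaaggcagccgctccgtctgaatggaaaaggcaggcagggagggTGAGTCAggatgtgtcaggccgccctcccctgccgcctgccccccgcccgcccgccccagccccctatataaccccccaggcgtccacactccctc
CXCL8 promoter, chr4:73740419-73740568, plus strand: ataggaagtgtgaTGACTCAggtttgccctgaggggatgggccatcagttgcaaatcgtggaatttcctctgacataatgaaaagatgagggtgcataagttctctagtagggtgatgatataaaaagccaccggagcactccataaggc
ISG15 promoter, chr1:1013347-1013496, plus strand: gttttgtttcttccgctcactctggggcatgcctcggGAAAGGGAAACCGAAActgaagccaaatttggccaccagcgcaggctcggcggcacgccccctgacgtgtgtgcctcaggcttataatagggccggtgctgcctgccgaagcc
IFIT1 promoter, chr10:89392473-89392622, plus strand: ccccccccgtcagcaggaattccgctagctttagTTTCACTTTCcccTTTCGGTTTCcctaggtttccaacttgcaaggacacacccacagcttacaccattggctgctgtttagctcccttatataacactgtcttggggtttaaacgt

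The letters searched, on both strands of 250 bases before each start, were GGGA, any 2 bases and TTCC for NF-kB, TGANTCA (N being any base) for AP-1, and GAAA, any 2 bases and GAAA for the interferon response. Matches may overlap, as the pair in ISG15 does. The NF-kB letters stood in 9 of 18 promoters of the cytokine list that the table holds and in 1.42% of all 27305 promoters. They were present in IL6 and TNFAIP3, which rose, in CXCL2 and CXCL3, which were not called, and in CXCL5, which fell. The AP-1 letters stood in 6.6% of all promoters, in 35 of 444 promoters of genes that rose at least 1.5-fold (7.88%), in 13 of 385 of those that fell as much (3.38%) and in 189 of 5889 of genes not called (3.21%). A match is a description of the letters and not a binding site.

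Interferon-stimulated and antigen presentation genes, which act in defence against viruses, split into those that rose and those without a call. Of 27 tested, 11 rose and none fell, with a median of 0.18. Without the third array of 100 nM 2 of the genes fell, and without the third of 500 nM 1 fell. ISG15, a ubiquitin-like modifier, had 1136, 1366 and 1237 at 100 nM and 3805, 3942 and 2607 at 500 nM, a rise of 1.44 (SE 0.12, adjusted p = 1.05e-09). The GTPase GBP1 had 141, 126 and 152 at 100 nM and 412, 415 and 495 at 500 nM, a rise of 1.55 (SE 0.14, adjusted p = 4.44e-09). IRF1, a transcription factor of this response, rose by 0.89 (SE 0.09, adjusted p = 3.93e-08), and the peptide transporter TAP1 by 0.85 (SE 0.09, adjusted p = 7.83e-08).

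The arrays of the 2 doses did not overlap in any of these 4 genes. Classical members without a call included IFIT1 (-0.32), IFIT2 (0.04), MX1 (0.06), OAS3 (0.14) and IFI44 (-0.12). The interferon response letters stood in 15 of 22 promoters of this list (68.2%) and in 3.07% of all promoters. IFIT1, whose promoter is printed with a pair of matches, was at -0.32 with adjusted p = 0.129, and ISG15, also with a pair, rose.

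Immediate early genes and partners of AP-1, a factor of growth and stress signals, had the highest list median, 0.62, with 18 of 24 higher and none lower. NR4A3, an orphan nuclear receptor, had 149, 121 and 129 at 100 nM and 506, 550.0 and 541 at 500 nM. The groups did not overlap, a rise of 1.88 (SE 0.10, adjusted p = 3.68e-13). ATF3, a stress-induced repressor, had 2133, 1786 and 2339 at 100 nM and 3999.7, 4037 and 3979.8 at 500 nM, a rise of 0.94 (SE 0.09, adjusted p = 1.32e-08). FOSL1 (1.41), NR4A1 (1.21), FOSB (1.13), CCN2 (1.03), CCN1 (0.86), JUNB (0.63) and FOSL2 (0.61) rose, and JUN (0.30) rose less.

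FOS and EGR1, the first genes induced by growth factors, were not called. FOS had 214, 164 and 296 at 100 nM and 223, 206 and 365 at 500 nM, with overlapping groups and a difference of 0.22 (SE 0.20, adjusted p = 0.425). EGR1 had 9729, 8821 and 9847 at 100 nM and 9763, 9004 and 10202 at 500 nM, a difference of 0.03 (SE 0.06, adjusted p = 0.744). Both differences turned their sign in some other settings, and neither was called in any of them.

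Feedback inhibitors of the kinase ERK were higher in 8 of 16 tested genes and lower in none, with a median of 0.38, and 2 were lower without the third array of 500 nM and 1 without the first. All of the called phosphatases of the DUSP family rose. DUSP4 had 390.5, 346 and 508 at 100 nM and 897, 856 and 919.7 at 500 nM, a rise of 1.09 (SE 0.12, adjusted p = 3.89e-08), and DUSP1 had 1178, 1076 and 1370.2 at 100 nM and 2480.3, 2039 and 3048 at 500 nM, a rise of 1.04 (SE 0.12, adjusted p = 9.94e-08). Neither gene had overlapping groups. DUSP5 (0.73), DUSP8 (0.70), DUSP10 (0.69), DUSP7 (0.61) and SPRY1 (0.52) rose too, while DUSP6 (0.22), SPRY4 (0.08) and ETV5 (0.03) were not called.

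Among the EGF receptor and its ligands 3 of 9 rose and 1 fell. The ligands HBEGF (0.69), EREG (0.61) and TGFA (0.31) rose, the receptor inhibitor LRIG1 (-0.54) fell, and the receptors EGFR (0.10) and ERBB2 (0.06) were not called. HBEGF had 1427, 1214 and 1653 at 100 nM and 2179, 2717 and 2071 at 500 nM. Its groups did not overlap, and at 1000 against 50 nM it was higher by 1.66. Without the third array of 500 nM 2 of the 9 genes were lower.

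Genes of the TGF-beta pathway, which acts through SMAD factors, were higher in 13 of 20 and lower in 1, with a median of 0.50. ID2, an inhibitor of differentiation factors, had 28.7, 31.4 and 36.5 at 100 nM and 144, 136 and 167 at 500 nM, a rise of 1.77 (SE 0.12, adjusted p = 2.31e-11). Its values at 100 nM all lay under the minimum level of 37.4. The ligand TGFB2 had 84.3, 82.0 and 119.5 at 100 nM and 331, 305 and 342 at 500 nM, a rise of 1.63 (SE 0.14, adjusted p = 1.48e-09). PMEPA1, a feedback inhibitor, rose by 0.67 (SE 0.07, adjusted p = 1.02e-08). The latency protein gene LTBP1 had 152, 147 and 99.6 at 100 nM and 31.2, 41.6 and 44.4 at 500 nM, a change of -1.42 (SE 0.15, adjusted p = 3.6e-08).

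No array of 500 nM overlapped one of 100 nM in these 4 genes. The matrix and ligand genes THBS1 (1.43), ANGPTL4 (1.12) and INHBA (1.07) and the inhibitory factor SMAD7 (0.86) rose, while TGFB1 (-0.06), TGFBR2 (-0.11) and SMAD6 (-0.11) did not pass the test. At 1000 against 50 nM ID2 was higher by 3.77, TGFB2 by 0.18 (adjusted p = 0.29) and PMEPA1 stood at -0.03 (adjusted p = 0.69).

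Keratins and junction genes of epithelia were higher in 20 of 28 tested genes and lower in 1, DSC2 (-0.25), with a median of 0.32. KRT8, a keratin of simple epithelia, had 547, 533 and 712 at 100 nM and 1242, 1604 and 1258 at 500 nM, a rise of 1.18 (SE 0.14, adjusted p = 1.59e-07). KRT80 had 279, 261 and 278 at 100 nM and 568, 759.5 and 529 at 500 nM, a rise of 1.12 (SE 0.11, adjusted p = 1.02e-08). CLDN1, a tight junction claudin, had 2359, 2380.2 and 2541 at 100 nM and 3736, 4158 and 3904 at 500 nM, a rise of 0.69 (SE 0.05, adjusted p = 1.08e-10). All 3 genes had groups that did not overlap.

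SFN, the epithelial 14-3-3 sigma gene and a p53 target, had 2856, 2668 and 3103 at 100 nM and 5495, 5666 and 4632 at 500 nM, a rise of 0.87 (SE 0.08, adjusted p = 2.12e-09). JUP (0.96), KRT15 (1.35), KRT5 (0.69), LAMB3 (0.60) and KRT19 (0.51) rose, and EPCAM (-0.01), ITGB4 (0.18) and DSG2 (-0.11) were not called. The summed level of the 10 tested epithelial markers ran from 24676 to 28020 at 100 nM and from 31023 to 36261 at 500 nM, with 8 of 10 higher and none lower. Without the first or the third array of 500 nM 2 genes of this list were lower, and without the second none. Of the mesenchymal markers, SNAI2 rose by 1.20 (SE 0.15, adjusted p = 9e-07) and VIM by 0.50 (SE 0.13, adjusted p = 0.00374), COL4A1 fell by 0.39, and FN1 (-0.03), CDH2 (-0.21) and SPARC (0.03) were not called. Without the third array of 500 nM 3 mesenchymal markers were lower. In such extracts of whole cultures, fewer cells of a kind and less RNA per cell cannot be told apart.

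The stress programmes moved in different directions. Targets of ATF4, which act in amino acid supply and the integrated stress response, fell in 14 of 25 and rose in 2, with a median of -0.16. TRIB3, a pseudokinase, had 2854, 2795 and 2653 at 100 nM and 1490.1, 1869 and 1396 at 500 nM, a change of -0.81 (SE 0.07, adjusted p = 1.61e-09). SLC7A11, the cystine transporter, had 3971, 3879.8 and 4007 at 100 nM and 2456, 2424 and 2422 at 500 nM, a change of -0.70 (SE 0.06, adjusted p = 5.36e-10). CHAC1, a glutathione-degrading enzyme, had 1532, 1213 and 1598 at 100 nM and 666, 833 and 644 at 500 nM, a change of -1.002 (SE 0.12, adjusted p = 3.48e-07).

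These 3 genes had no overlap between the doses. STC2 (-0.76), DDIT3 (-0.32), PSAT1 (-0.27) and ATF4 (-0.08) itself fell, NUPR1 (0.77) and AARS1 (0.22) rose, and ASNS (-0.06) was not called. In 5 of the 6 fits that left out an array, those without the first or second array of 500 nM or any array of 100 nM, the number of rises was 1.

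Genes of the endoplasmic reticulum, for protein folding and degradation, fell in 11 of 23 and rose in 1, with a median of -0.12. ATF6, a sensor of unfolded proteins, had 462, 459 and 488 at 100 nM and 239.6, 261 and 261 at 500 nM, a change of -0.85 (SE 0.08, adjusted p = 5.56e-09). HERPUD1, a degradation factor, had 2476, 2430.1 and 2413 at 100 nM and 1577, 1726 and 1803 at 500 nM, a change of -0.52 (SE 0.05, adjusted p = 1.4e-08). XBP1, the spliced factor of this response, fell by 0.59, and the major chaperone HSPA5 (-0.08) was not called. Cytosolic heat shock genes, which help proteins fold, rose in 13 of 18 and fell in none, with a median of 0.34.

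BAG3, a co-chaperone, had 525, 523 and 567 at 100 nM and 1001, 1021 and 895 at 500 nM, a rise of 0.83 (SE 0.08, adjusted p = 1.14e-08). HSPA4L (0.70), DNAJB1 (0.59), HSPB1 (0.49) and HSPH1 (0.32) rose too. In the synthesis of cholesterol 14 of 18 genes were called higher and 1, PMVK (-0.32), lower, with a median of 0.33. HSD17B7 had 919, 806 and 812 at 100 nM and 1370.3, 1390.5 and 1272 at 500 nM, a rise of 0.66 (SE 0.06, adjusted p = 1.73e-09), and INSIG1 (0.61), DHCR7 (0.60), SQLE (0.47) and HMGCS1 (0.31) rose. Without the third array of 500 nM 2 genes of this list were lower. The groups of BAG3 and HSD17B7 did not overlap.

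Among genes of hypoxia and glycolysis, 13 of 28 were called higher and 2 lower, with a median of 0.16. Without the first array of either dose 1 was lower. ADM, the vasodilator adrenomedullin, had 553, 567 and 654 at 100 nM and 1415, 1468 and 1655 at 500 nM, a rise of 1.33 (SE 0.08, adjusted p = 3.62e-12). The glycolytic genes ALDOC (0.94), PFKFB4 (0.96) and PFKP (0.69) rose, and VEGFA (-0.17), LDHA (0.02) and HIF1A (-0.06) were not called. Genes of the pathway of NRF2, the antioxidant factor, rose in 9 of 21 and fell in 5, or in 3 without the second array of 500 nM. HMOX1 (0.90), KEAP1 (0.86) and NQO1 (0.32) rose, SLC7A11 (-0.70), ME1 (-0.57) and GCLM (-0.17) fell, and HMOX1, with 33.4, 31.8 and 30.6 at 100 nM and 58.2, 69.4 and 96.3 at 500 nM, started under the minimum level.

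**Figure D5:**
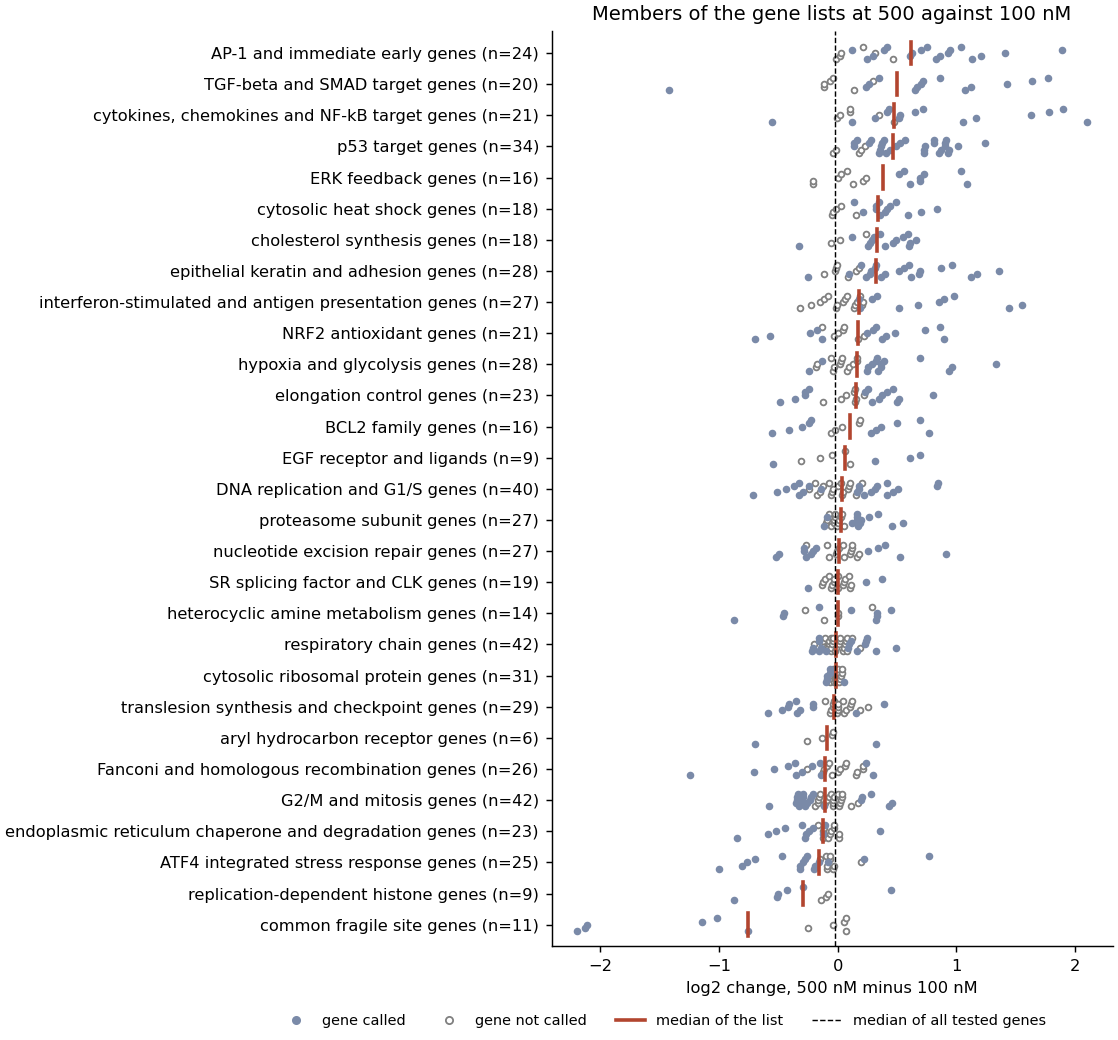
Each row is a gene list and each point a member at its log2 change from 100 to 500 nM (horizontal axis), filled where it was called and open where it was not; red bars are list medians and the dashed line is the median of all tested genes, -0.02. Medians run from -0.76 for fragile site genes to 0.62 for AP-1 and immediate early genes.

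Of 40 genes of DNA replication and G1/S, 13 rose and 9 fell, with a median of 0.03, against 18.8% higher and 21.5% lower over all genes. RRM2, a subunit of ribonucleotide reductase, had 4058, 4127 and 4057 at 100 nM and 4959, 5208 and 5041 at 500 nM, a rise of 0.31 (SE 0.03, adjusted p = 5.9e-09), after a fall of 0.20 from 10 to 50 nM. Another tested RRM2 probe set was not called from 100 to 500 nM (0.02, limma adjusted p = 0.749). CCND1 (0.84) and GINS4 (0.84) rose, and E2F2 (-0.71), PRIM1 (-0.51) and CDC45 (-0.36) fell. Of 42 genes of G2/M and mitosis, 5 rose and 16 fell, with a median of -0.11.

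AURKA, a mitotic kinase, had 4402, 4191 and 4086 at 100 nM and 3328, 3490.4 and 3189.9 at 500 nM, a change of -0.34 (SE 0.04, adjusted p = 2.92e-08). CDCA3 (-0.57), PLK1 (-0.35), CCNB1 (-0.32) and HMMR (-0.34) fell, and KIF20A (0.46) and DLGAP5 (0.43) rose. CDK1 (0.11) was not called. Of 9 replication-dependent histone genes 5 fell and 1 rose, with a median of -0.29. At 1000 against 50 nM the same list had a median of 1.05, with 5 higher and 1 lower. Without the second array of 500 nM no histone gene was higher. H2AC6 had 637, 583 and 803 at 100 nM and 297, 349 and 439.8 at 500 nM, a change of -0.87 (SE 0.14, adjusted p = 1.39e-05), and its groups did not overlap.

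In nucleotide excision repair, the pathway for bulky adducts, 6 of 27 rose and 8 fell, with a median of 0.01, against 18.8% higher and 21.5% lower over all genes. XPC, a damage sensor and p53 target, had 423, 404 and 352 at 100 nM and 766, 785 and 712 at 500 nM, a rise of 0.92 (SE 0.09, adjusted p = 2.05e-08). MNAT1, which assembles the CDK7 kinase module of the factor TFIIH, had 1213, 1228 and 1173 at 100 nM and 842, 812 and 850.3 at 500 nM, a change of -0.52 (SE 0.05, adjusted p = 8.77e-09). ERCC8 (-0.50) and UVSSA (-0.23), of the transcription-coupled branch, fell, and ERCC6 (0.18) was not called.

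In the Fanconi and homologous recombination pathways 2 of 26 rose and 10 fell, with a median of -0.10. RAD51B, a recombination gene, had 183, 148 and 124 at 100 nM and 49.6, 41.0 and 75.6 at 500 nM, a change of -1.24 (SE 0.14, adjusted p = 1.61e-07). XRCC2 (-0.70), FANCF (-0.54) and FANCC (-0.42) fell. The rises, RAD54L (0.30) and RAD50 (0.23), were both lost without the first array of 500 nM and without the second of 100 nM, and 1 gene of the list was called higher without the first or the third of 100 nM. Among translesion synthesis and checkpoint genes 2 of 29 rose and 9 fell, and without the second array of 500 nM 6 rose and 6 fell. CLSPN (-0.58), ATM (-0.42) and CHEK1 (-0.41) fell, POLH (0.39) rose, and ATR (0.11) was not called.

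In the BCL2 family, which governs cell death, 6 of 16 rose and 5 fell, or 3 without the first array of 100 nM. The death-promoting BAK1 (0.77), BIK (0.69), BCL2L11 (0.50) and BAX (0.37) and the survival gene BCL2L1 (0.28) rose, and the survival genes BCL2 (-0.55) and BCL2L2 (-0.30) fell. The other falls were in the death-promoting genes BCL2L13 (-0.41), BNIP3L (-0.24) and BID (-0.22), and BNIP3 (0.32) rose. BAK1 had 338, 350.9 and 348 at 100 nM and 512, 591 and 713 at 500 nM. Its groups did not overlap. MCL1 (0.19) and PMAIP1 (0.18) were not called.

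Genes that handle heterocyclic amines rose in 5 of 14 and fell in 4, and without the second array of 500 nM 2 rose. NAT1, an acetyltransferase that activates N-hydroxylated amines, had 392, 416 and 389 at 100 nM and 528, 525 and 603 at 500 nM, a rise of 0.45 (SE 0.07, adjusted p = 2.88e-05). SULT1A1 (0.33), a sulfotransferase, rose and SULT1E1 (-0.87) fell. Of 6 genes of the aryl hydrocarbon receptor 1 rose and 1 fell, or 3 without the third array of 500 nM and 2 without the first. CYP1B1, which oxidises such amines, had 199, 226 and 172 at 100 nM and 114, 101.3 and 135 at 500 nM, a change of -0.70 (SE 0.11, adjusted p = 2.71e-05), and NQO1 rose by 0.32 (SE 0.04, adjusted p = 2.4e-06).

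Genes of transcription elongation rose in 10 of 23 and fell in 5, with a median of 0.15. POLR2A, the largest subunit of RNA polymerase II, had 597, 573 and 581 at 100 nM and 1050.1, 1069 and 969.6 at 500 nM, a rise of 0.80 (SE 0.10, adjusted p = 4.75e-07). HEXIM1, an inhibitor of the elongation kinase P-TEFb, rose by 0.50 (SE 0.07, adjusted p = 1.64e-06), and LARP7 (-0.36) fell. CDK9 (0.22) and CDK12 (0.15) were not called. Splicing factors of the SR family rose in 2 of 19 and fell in 1, or rose in 5 without the second array of 500 nM and in 1 without the second of 100 nM. Without the third of 500 nM 3 fell.

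Of 31 ribosomal protein genes 1 rose and 5 fell, the largest change among their brightest probe sets being -0.10. The rise was in RPL22 (0.06), of which another probe set was called lower (-0.17, limma adjusted p = 0.0025). Without the third array of 500 nM or the first of 100 nM none fell. None rose in these fits or without the second array of either dose. The number lower was 2 without the second of 100 nM, and 3 without the first of 500 nM or the third of 100 nM. Proteasome genes rose in 11 of 27 and fell in 2, or in 1 without the first array of 500 nM, with a median of 0.03. Nuclear genes of the respiratory chain rose in 9 of 42 and fell in 7, with a median of -0.02, near the shares over all genes of 18.8% higher and 21.5% lower. Without the third array of 500 nM 14 rose. The number lower was 2 without the first of 100 nM and 4 without the second.

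Tested genes of the mitochondrial genome all fell. They were singled out after their values were seen, and comprise every gene on chromosome MT with a tested probe set: 7 genes and 9 probe sets, all 9 lower. Mitochondrial COX2, a subunit of cytochrome oxidase distinct from PTGS2, had 12045, 10856 and 12107 at 100 nM and 5366, 6293 and 6097 at 500 nM, a change of -0.98 (SE 0.05, adjusted p = 3.51e-13). ND2, a subunit of complex I, had 7754, 6713 and 8282 at 100 nM and 3212, 3979 and 3128 at 500 nM, a change of -1.14 (SE 0.07, adjusted p = 2.67e-12). ATP6, of ATP synthase, had 4276, 3365 and 4670.0 at 100 nM and 1890.2, 1897 and 1344 at 500 nM, a change of -1.26 (SE 0.11, adjusted p = 9.58e-10). In all 3 genes the groups were apart.

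COX1 (-0.84), COX3 (-0.93), ND4 (-0.94) and ND6 (-0.68) fell as well. The median of the 7 genes was -0.94, and it ran from -1.07 to -0.83 when an array was left out, with 7 of 7 lower each time. From 10 to 50 nM their median was -0.11 with none called, and at 1000 against 50 nM it was -1.28 with 7 of 7 lower. Nuclear copies of mitochondrial sequence exist, and how far the probe sets read them was not tested.

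The 3′ to 5′ ratio of control transcripts, a gauge of RNA integrity and amplification, differed between the doses for actin and not in the same direction for GAPDH. For actin the log2 ratio was 2.16 ± 0.11 (SD, n = 3) at 100 nM and 1.67 ± 0.20 at 500 nM, with exact two-sided permutation p = 0.1, the smallest that 3 against 3 arrays allow. For GAPDH it was 0.156 and 0.196 (exact permutation p = 0.3). With the mean ratio of both genes as a covariate 7634 probe sets were called, of which 5993 were among the 9751. The median of the mitochondrial genes was then -0.72 with 7 of 7 lower, and that of the longest class of genes -0.64. Arrays of 500 nM correlated with each other at 0.980 to 0.992 over tested probe sets, those of 100 nM at 0.993 to 0.997, and arrays of different doses at 0.974 to 0.982.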

How the data were processed

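RNA from BEAS-2B cultures was hybridised to Affymetrix 3′ expression arrays, 29 in 10 groups by title. The authors deposited 1 linear intensity for each probe set and array, made with GCOS per the submitters' processing notes. How the authors scaled the arrays was not given in these sources. The trimmed means of the 29 arrays, 299 to 309, lay within 3.12%. Detection calls were not used. log2(intensity + 16) of the deposited table was fitted with limma 3.58.1 in R 4.3.3, a mean-variance trend and 10 group means, which left 19 residual degrees of freedom. The DMSO arrays served as no reference. They entered the estimate of spread and the mean level over all arrays, which set the filter and the brightest probe set. Of 54675 probe sets, 62 controls were left out, and 27307 at or above the median mean level (intensity 37.4) were tested, with Benjamini-Hochberg adjustment over all of them. Of all probe sets other than controls, 41091 had 1 gene symbol, 1801 several and 11721 none. Where a gene had several tested probe sets, the brightest on average stood for it.

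Named genes were the 10 largest rises and falls among called genes whose groups did not overlap, up to 4 members of smallest p per list, and a fixed set such as CDKN1A, FOS and CYP1B1; further list members were named for description after their values were seen. Members and lists were chosen with earlier results of these data known. On simulated data of 27307 probe sets, 100 were changed 1.5-fold and 100 were changed 2-fold, with independent noise of equal spread in all groups. Of these 82% and 98% were recovered, with 9 false calls. The deposited arrays had far more calls and unequal spread, so the 9 give no error rate for them. The number of arrays limits the precision. Same-numbered arrays of both doses correlated at 0.06, 0.20 and 0.14, so the numbers did not meet the rule for pairing. Alternatives covered the offset, scaling, level filter, variance model, covariates, the arrays fitted and each array left out. Settings for the lower steps, the counts of list members, the classes of level and the mitochondrial genes were added after seeing the data. Figures were drawn with matplotlib 3.10.9 in Python 3.11.15.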

Additional observations from a re-analysis of the deposited data

Results flagged for a closer look

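The change from 100 to 500 nM differed from that from 10 to 50 nM, in a direct limma test of the difference, for 6676 of 27307 probe sets, 3427 with a positive and 3249 with a negative difference. A probe set of RRM2, a subunit of ribonucleotide reductase, was called in opposite directions by the 2 steps. It fell by 0.20 from 10 to 50 nM (limma adjusted p = 0.00694) and rose by 0.31 from 100 to 500 nM (adjusted p = 5.9e-09), and the difference was 0.51 (SE 0.04, adjusted p = 3.69e-09). Its mean intensity went from 4803 ± 67.5 to 4194 ± 122 in the lower step and from 4080.5 ± 40.1 to 5069 ± 127 in the upper one (SD, n = 3 each). A second tested probe set of RRM2 had 3747 ± 95.5 at 100 nM and 3815 ± 311 at 500 nM. It was not called in the upper step (0.02, limma adjusted p = 0.749).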

How the results depend on the processing

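The main fit called 9751 of 27307 probe sets from 100 to 500 nM. With the upper 25% by level only 13654 were tested, and 6188 of these were called, of which 5929 were among the 9751. The count was 4872 with the 6 arrays alone, 483 with limma's treat test against 1.5-fold, and 8003 to 10840 when an array was left out. The 2139 changes of at least 1.5-fold became 1296 with offset 64 and 876 of the 13654 tested with the upper 25% by level, and 2055 to 2578 when an array was left out. The 6676 differences between steps ranged from 5580 to 8310 when an array was left out. The median of the longest genes, -0.67, was -0.76 with offset 1, -0.46 with offset 64, -0.76 with the upper 25% by level and -0.57 as the mean of all tested probe sets, and -0.68 to -0.62 when an array was left out. FOS reversed to -0.24 and EGR1 to -0.022 with the 3′ to 5′ ratio as covariate; over the arrays left out FOS ran from -0.026 to 0.42 and EGR1 from -0.021 to 0.078, and neither was called. With the replicate number as a block 9842 probe sets were called, 2140 of them at least 1.5-fold, and 6793 differences between steps; every array correlated best with its own number, a hint from the data and not the design. Level filters set which probe sets are tested, and offsets set how low levels weigh. The fitted arrays set the group means, the estimate of spread and the degrees of freedom. The cause of the other shifts was not tested. Of the values of single named genes under other settings, 2645 kept direction and call, 83 lost the call and 5 reversed.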
